A study of Homo sapiens with 12 samples.

Results

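Accessible sites inside protein-coding genes, away from any gene end, made up 40536 of the 105599 summits that the chromatin accessibility peak list of the series placed on chromosomes 1 to 22 in intervals of at most 10000 bp. This is 38.4% (Wilson 95% confidence interval 38.1 to 38.7, for counting error only), and 21.6% of the 188019 summits in the whole list. A summit is the position of highest signal within a called interval. It was counted as a body summit where it lay between the start and the end of a protein-coding gene of RefSeq GRCh38.p14 and more than 1000 bp from an end of any gene. In all 49427 summits lay inside a coding gene, and 8891 of them were set aside for lying within 1000 bp of a gene end. Of the body summits, 39572 lay in 1 coding gene and 964 in 2 or more that overlap. A further gene of another kind (such as a long noncoding RNA gene or a pseudogene) covered 2817 of them. They fell in 34588 intervals, and 29678 (73.2%) were the only summit of theirs.

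Accessibility was mapped by ATAC-seq, with a transposase that cuts open chromatin, in HT1080, an established human fibrosarcoma line of mesenchymal kind. Cells spent 48 h in a gel of type I collagen from rat tail. The gel of the low group held 0.3 mg/mL, that of the medium group 1.0 mg/mL and that of the high group 1.7 mg/mL, and each group had 4 libraries, 12 in all. All 3 groups received 20 µM GM6001, a broad inhibitor of matrix metalloproteinases, and none was without it. The series asked how such confinement alters chromatin. The list analysed here was called over the pooled libraries and holds no value per library or per concentration. No value below is therefore a comparison between concentrations, none has a replicate error, and the depth of each library is unknown. Intervals and quartiles describe the spread among sites, which are not replicates.

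Accessible sites inside genes are of several kinds. Introns hold enhancers and silencers that may act on the gene around them or on another gene, alternative promoters that start shorter transcripts, and sites bound by architectural proteins such as CTCF. Long introns leave more room for such elements than exons do, and in mesenchymal cells many intronic enhancers carry motifs for the AP-1 and TEAD factors. Exon and intron boundaries were not used here, so a body summit is described only by its distance from gene ends and from the transcript starts that RefSeq lists.

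The clearest sequence context was available for body summits that sat on such a listed internal start, and 6 of these windows are printed because they show the range of base composition found there. Each runs from 250 bases before to 50 bases after a listed start that lies inside the gene, taken from RefSeq on GRCh38.p14, 5′ to 3′ on the strand of the gene, with every CG dinucleotide in capitals. The start of MTHFD2L, a mitochondrial enzyme of folate metabolism, lay under the body summit with the third highest enrichment (chr4:74157868-74158167, plus strand). TGFBR1 encodes the type I receptor kinase for TGF-beta (chr9:99104863-99105162, plus strand), and RUNX1 a transcription factor (chr21:34888650-34888949, minus strand). CALD1 encodes caldesmon, which binds actin and tropomyosin (chr7:134779384-134779683, plus strand). LTBP1 encodes a matrix protein that holds latent TGF-beta (chr2:33134346-33134645, plus strand), and HDAC9 a class IIa histone deacetylase (chr7:18509020-18509319, plus strand). The 5 windows other than that of MTHFD2L were picked from the gene lists after their values had been seen.
MTHFD2L: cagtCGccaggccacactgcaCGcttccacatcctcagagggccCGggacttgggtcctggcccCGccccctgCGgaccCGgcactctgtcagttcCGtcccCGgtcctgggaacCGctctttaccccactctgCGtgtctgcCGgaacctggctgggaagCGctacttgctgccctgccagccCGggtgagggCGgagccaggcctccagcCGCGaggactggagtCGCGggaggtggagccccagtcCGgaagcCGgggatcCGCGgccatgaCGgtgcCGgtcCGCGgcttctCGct
TGFBR1: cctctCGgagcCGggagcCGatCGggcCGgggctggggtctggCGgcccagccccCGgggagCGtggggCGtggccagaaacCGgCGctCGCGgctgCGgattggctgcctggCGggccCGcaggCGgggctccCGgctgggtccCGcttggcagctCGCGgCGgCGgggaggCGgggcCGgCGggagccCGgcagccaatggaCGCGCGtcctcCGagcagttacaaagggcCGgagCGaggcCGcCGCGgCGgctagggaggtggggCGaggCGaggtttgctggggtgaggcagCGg
RUNX1: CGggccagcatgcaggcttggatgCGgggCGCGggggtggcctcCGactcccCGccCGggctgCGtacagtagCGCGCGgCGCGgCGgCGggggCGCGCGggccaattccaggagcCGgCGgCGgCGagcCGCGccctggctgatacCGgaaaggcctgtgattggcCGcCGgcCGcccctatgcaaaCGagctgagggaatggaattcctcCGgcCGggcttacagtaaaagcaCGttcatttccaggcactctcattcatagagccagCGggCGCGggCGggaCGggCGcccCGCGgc
CALD1: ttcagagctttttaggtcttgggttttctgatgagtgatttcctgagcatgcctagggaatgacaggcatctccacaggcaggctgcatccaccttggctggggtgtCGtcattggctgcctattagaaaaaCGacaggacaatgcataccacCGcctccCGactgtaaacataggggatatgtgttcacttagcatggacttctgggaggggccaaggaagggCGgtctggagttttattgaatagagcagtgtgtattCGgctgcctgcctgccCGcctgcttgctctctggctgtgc
LTBP1: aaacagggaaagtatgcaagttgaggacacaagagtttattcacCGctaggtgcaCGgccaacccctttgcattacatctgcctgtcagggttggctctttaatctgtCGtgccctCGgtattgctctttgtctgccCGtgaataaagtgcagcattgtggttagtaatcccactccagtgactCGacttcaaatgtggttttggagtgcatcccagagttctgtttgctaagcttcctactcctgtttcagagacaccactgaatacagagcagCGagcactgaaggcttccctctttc
HDAC9: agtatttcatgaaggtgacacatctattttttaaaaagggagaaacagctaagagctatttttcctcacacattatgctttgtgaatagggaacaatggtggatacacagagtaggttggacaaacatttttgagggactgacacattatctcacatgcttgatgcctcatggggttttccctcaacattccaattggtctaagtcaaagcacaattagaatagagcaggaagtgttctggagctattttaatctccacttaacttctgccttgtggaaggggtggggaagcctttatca

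The MTHFD2L window held 27 CG dinucleotides and 71.0% G and C, and the summit lay 125 bp from the listed start with a pileup of 2064 fragments. Pileup is the number of overlapping fragments at the summit, summed over the pooled libraries and solved from the enrichment and the p-value. Whether whole fragments, extended reads or cut sites were counted is not given, so fragments here stands for the unit counted. Enrichment is the authors' ratio of pileup to the local background. The TGFBR1 window held 40 CG dinucleotides, and its summit had an enrichment of 16.2 with 1793 fragments. RUNX1 also had 40 in its window, with an enrichment of 7.99 and 1246 fragments. By contrast the CALD1 and LTBP1 windows held 7 each, at enrichments of 16.6 (1878 fragments) and 13.6 (678 fragments). The HDAC9 window held 0 and had 40.0% G and C, and its summit had an enrichment of 12.9 with 518 fragments. Strong internal summits therefore lay both on windows dense in CG and on windows with few or none. Since the pileup sums over cells and libraries, fewer cells with an open site and fewer fragments per cell cannot be told apart in any of these values.

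Body summits were lower than summits at coding gene ends and close to intergenic ones. Their enrichment had a median of 3.73 (95% confidence interval of the median over sites 3.69 to 3.76), quartiles of 2.09 and 6.81 and a range of 1.25 to 21.3. The median pileup was 101 fragments, with quartiles of 56 and 213 and a highest value of 8579. Summits within 1000 bp of a coding gene end had medians of 9.07 for enrichment and 508 for pileup. Intergenic summits within 50000 bp of a gene had medians of 3.83 and 99.0, and those in the bodies of other genes 4.03 and 102. Intergenic summits beyond 50000 bp were lower, with medians of 2.44 and 52.0. An enrichment of 10 or more was reached by 4739 body summits (11.7%) against 46.1% of coding gene end summits, while 22.2% of body summits were under 2. Median interval length was 532 bp in gene bodies and 900 bp at coding gene ends. No test was made between these classes, because sites of 1 pooled list have no replicates.

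**Figure D1:**
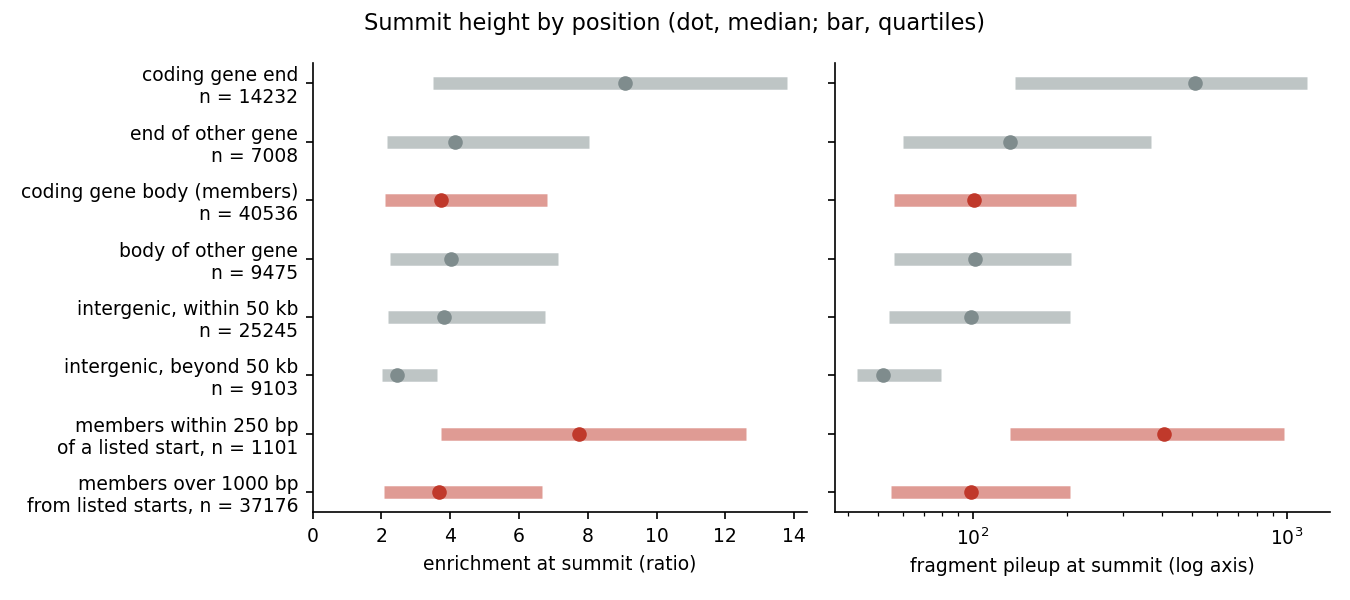
Enrichment (left, ratio) and fragment pileup (right, log axis) at summits by position, with a dot for the median and a bar from the lower to the upper quartile; red marks body summits. The median enrichment of body summits, 3.73, sits beside the intergenic value of 3.83 and below the 9.07 of coding gene ends, and body summits within 250 bp of a listed start reach 7.74.

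Coding gene bodies held more summits than any other class and also covered the most sequence. Per Mb of sequence of each kind there were 35.7 body summits over 1136 Mb, 205 summits at coding gene ends over 69.4 Mb, 26.9 in the bodies of other genes and 32.1 between genes within 50000 bp of one. The local background at the summit was above the genome-wide value of 20.3 fragments at 69.2% of body summits, at 91.5% of coding gene end summits and at 15.7% of intergenic summits beyond 50000 bp. A body summit alone in its interval had a median enrichment of 4.48, and one that shared its interval with other summits 2.35. Summits deep inside long genes had a somewhat higher enrichment, at a similar pileup over a lower background. The 1212 body summits over 100 kb from any gene end had a median enrichment of 4.50, against 3.35 for the 17884 within 10000 bp of one. Their median pileups were 105 and 101 fragments, and their median backgrounds 20.3 and 27.7. Across the 1000 bp limit the values ran on without a step: the 1057 body summits in the 250 bp beyond the limit had a median enrichment of 2.77, and the 1291 summits excluded in the 250 bp before it had 2.86. At the limit on interval length, 11 body summits in 1 interval came from the last 1000 bp under it, and 0 lay in intervals of up to 1000 bp over it.

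The body summits of highest enrichment each stood alone in a short interval. The highest, at position 108991660 of chromosome 13 in MYO16, an unconventional myosin gene, had an enrichment of 21.3 with 1177 fragments over a background of 54.3, and lay 148688 bp from the nearest listed start. ARHGAP32, which encodes a GTPase-activating protein, followed at 20.6 and position 129143535 of chromosome 11. MTHFD2L had 20.1, HFM1, a meiotic helicase gene, 19.9, and GRSF1, a mitochondrial RNA-binding protein gene, also 19.9. Lower still were DLC1, another GTPase-activating protein gene, at 19.6, and NRXN3, a neurexin of synapses, at 19.5. EFL1, a ribosome maturation GTPase gene, had 19.3 and IMMP2L, a mitochondrial peptidase gene, 19.2. Among these 9 summits the pileup ran from 754 in NRXN3 to 4513 in GRSF1, so a similar enrichment stood on unlike fragment numbers. Those of MTHFD2L and GRSF1 lay within 200 bp of a listed start (125 and 184 bp), those of the other 6 with listed starts at least 17347 bp away. The GRSF1 summit was also only 1082 bp from a gene end, just beyond the limit of 1000 bp. No starts were used for DLC1, which lies on chromosome 8. Repeated sequence at these 9 summits was not examined, and how reads that match several places were placed is not known.

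Counted by gene, body summits were common but thin. Of the 13798 coding genes of at least 10000 bp, 9557 (69.3%) held at least 1, and 9712 (70.4%) had a summit within 1000 bp of an own end. Both shares are the background for the gene lists below. The density of body summits per kb of gene length had a median of 0.0281, quartiles of 0 and 0.0666, a 90th percentile of 0.112 and a maximum of 0.798. Pooled over these genes there were 0.0335 summits per kb. A few genes held much of the total: 1585 genes (11.5%) held 50% of all 40803 pairs of a gene and a summit, 4241 held none, 2787 held 1 and 189 held 20 or more.

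Longer genes were more often occupied, yet at lower density. Of genes of 10 to 30 kb, 50.4% held a body summit, at a median density of 0.0337 per kb. For genes of 30 to 100 kb the share was 73.4% and the median 0.0305, and for genes of 100 to 300 kb 92.3% and 0.0271. From 300 to 1000 kb the share was 97.8% and the median 0.0198, and the 66 genes over 1000 kb had 98.5% and 0.00808. Genes with and without a summit at an own end held a body summit at similar shares. The share with a body summit was 69.6% where it had one and 68.5% where it had none, with median densities of 0.0290 and 0.0260. Among genes of 300 to 1000 kb these medians were 0.0223 and 0.0170. Pooled density was lowest on chromosome 4 (0.0243 per kb) and highest on chromosome 19 (0.0580), followed by chromosome 22 (0.0566). Chromosome 19 genes had a median length of 22.8 kb against 59.2 kb on chromosome 4.

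**Figure D2:**
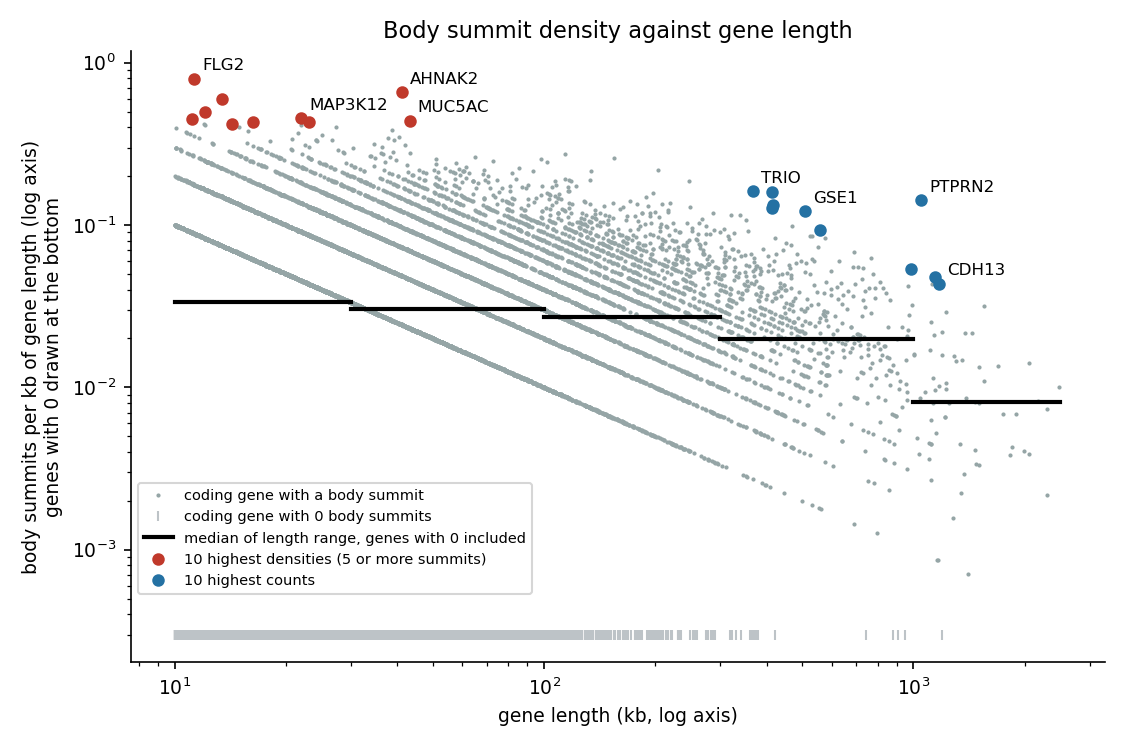
Body summits per kb of gene length against gene length in kb (both log axes), with 1 point per coding gene of at least 10 kb, ticks at the bottom for genes with 0, and black bars for the median of each length range. The bars fall from 0.0337 at 10 to 30 kb to 0.00808 over 1000 kb, and the genes of highest density (red) and of highest count (blue) lie at opposite ends of the length scale.

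Summits were spread along the whole gene and somewhat denser toward its far end. For 11114 genes with a listed strand, the body was divided into 10 equal segments from the start. The density rose from 30.7 summits per Mb in the first segment to 41.4 in the last, while median enrichment fell from 4.10 to 3.30. The rise lay in the weaker summits, those with an enrichment under 5, which went from 18.6 to 28.0 per Mb. Summits of 5 or more stayed between 12.1 and 14.0 per Mb in all 10 segments. Accordingly the last segment held 57.4% of the summits in the first and last together, but 52.5% of those with an enrichment of 5 or more. Summits within 1000 bp of a listed start made up 16.5% of the first segment and 1.28% of the last. In the 1111 of these genes that are at least 200 kb long, the density was 77.6 per Mb between 1 and 2 kb after the start, where 35.9% lay near a listed start, and 19.0 per Mb between 2 and 5 kb. Before the far end it was 33.2 per Mb between 1 and 2 kb and 41.9 per Mb between 2 and 5 kb.

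**Figure D3:**
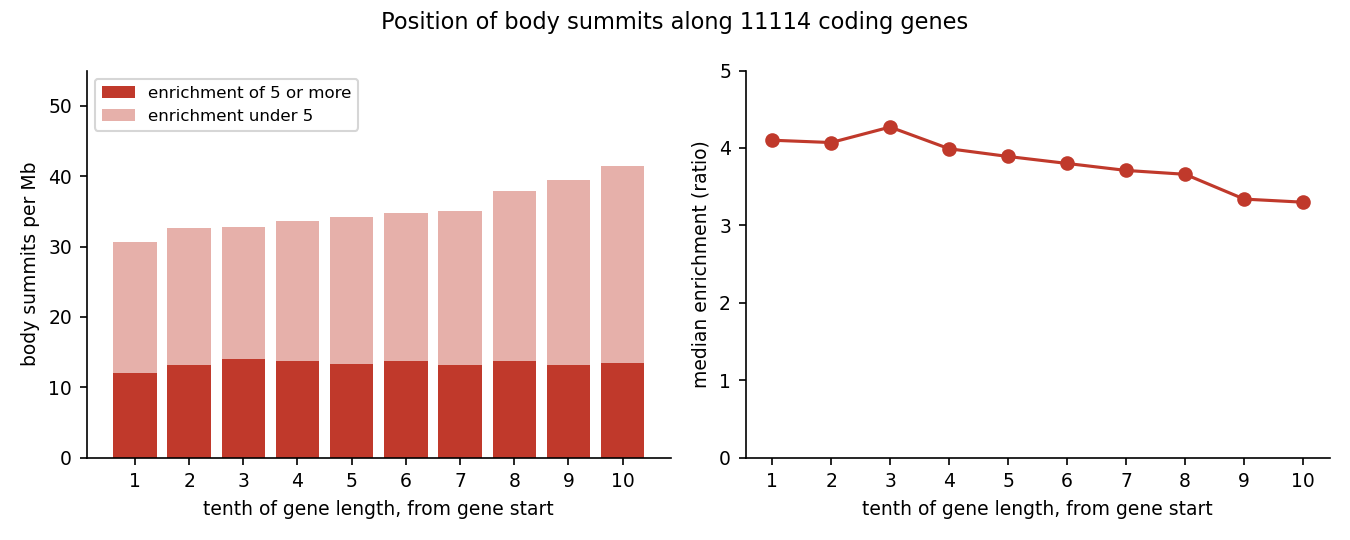
Body summits per Mb (left) and their median enrichment as a ratio (right) in 10 equal segments from the gene start to the gene end, over 11114 coding genes; the dark part of each bar counts summits with an enrichment of 5 or more. The whole bars rise from 30.7 to 41.4 per Mb while the dark parts stay between 12.1 and 14.0.

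Neighbouring body summits of a gene lay a median of 8724 bp apart, with quartiles of 1995 and 20435 bp. Pairs within 1 interval were 368 bp apart and pairs in separate intervals 11916 bp, so the count of a gene mixes separate sites with several maxima of 1 broad site. Both are met in the named genes below.

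Internal transcript starts were the clearest class of body summit by height. RefSeq lists 4237 starts that lie inside a coding gene and over 1000 bp from any gene end, in 2799 genes, and 1142 of them (27.0%) had a body summit within 250 bp. These were 1049 summits in 960 genes, with 2 or more such starts in 145 genes. Starts within 1000 bp of a gene end had a summit within 250 bp in 54.2% of 16919 cases. Body summits within 250 bp of a listed start had medians of 7.74 for enrichment and 405 for pileup, against 3.66 and 99.0 for those over 1000 bp from any. No listed starts or strands were used for chromosome 8.

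Internal starts with a body summit within 250 bp, here called open, differed in base composition from those with no summit. The 300-bp window of an open internal start held a median of 23 CG dinucleotides and 65.0% G and C, while that of an internal start with no summit within 250 bp held 6 and 52.3%. The AP-1 word TGANTCA, read on both strands, was in 11.5% of the windows of open internal starts and in 7.89% of those without a summit. At starts near gene ends the order was the reverse, with 4.48% of open windows and 6.47% of the others, and over all 21156 listed starts of coding genes the share was 6.08%. The TEAD word GGAATG was in 11.1% of open internal windows and 16.2% of those without a summit, and in 12.2% of all windows. The CTCF core word AGGGGGC was in 19.8% and 12.2%, and in 17.4% of all. Apart from AP-1, starts near gene ends had the same order between windows with and without a summit. Medians there were 28 and 11 CG dinucleotides, and 66.7% and 58.3% G and C. The TEAD word was in 9.74% and 13.8% of them and the CTCF word in 20.9% and 15.0%. Word shares were not adjusted for base composition. Windows of listed starts of 1 gene can overlap, and a word match is a description of the sequence and not a binding site. Of the windows printed above, those of CALD1, HDAC9 and RUNX1 held the TEAD word and that of MTHFD2L the CTCF word.

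Some genes had an open internal start and no summit at either outer end. Among genes of at least 10000 bp with an internal listed start, 389 of 1084 (35.9%) without an end summit had a body summit at such a start, as did 517 of 1495 (34.6%) with one. In TGFBR1 the summit at the start printed above was 1 of 3 body summits, and the gene had no end summit. TGFBR3, the betaglycan co-receptor gene, had an internal start at 13.9 with 923 fragments, and WWTR1, which encodes the YAP partner TAZ, one at 11.0 with 277 fragments. DAG1, the dystroglycan gene, had one at 14.1 with 2837 fragments. The histone demethylase genes KDM2B and KDM4C had theirs at 14.9 and 11.4. None of these 6 genes had a summit within 1000 bp of its outer ends. The internal summits of TGFBR1 and DAG1 lay within 2500 bp of the gene start, and those of the other 4 lay farther from both ends.

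Genes of highest density, among those with at least 5 body summits, were mostly short genes with broad and low intervals. FLG2, which encodes an epidermal filaggrin relative (chr1:152348735-152360006), had 9 summits in 3 intervals, or 0.798 per kb, all at enrichments of 1.71 to 2.08. AHNAK2, a large scaffold protein gene (chr14:104937253-104978374), had 27 summits in 41.1 kb, or 0.657 per kb. Of these, 16 shared 1 interval and 7 another, all between 1.52 and 2.55, while the highest, 8.12 with 2622 fragments, lay 4.93 kb from the gene start. OR6J1, an olfactory receptor gene, had 8 in 1 interval, none above 2.67. The highest 3 densities thus came largely from low summits in shared intervals. Repeated sequence within these 3 genes was not examined, and how reads that match several places were placed is not known.

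DUX4 and MAP3K12 had the highest median pileups of this group. DUX4, a homeobox gene of the repeat array near the end of the long arm of chromosome 4, had 6 summits in 1 interval with pileups of 1224 to 8409 over a background near 743 fragments. The array consists of near-identical copies, and how reads that match several copies were placed is not given in the sources used here, so its value is uncertain. MAP3K12, a kinase of neuronal stress signalling, had 9 summits at 1.28 to 1.82 and 1 at 12.6 with 1099 fragments. The remaining genes of the 10 had no summit above an enrichment of 5.03: DONSON, a replication gene (0.449 per kb), the mucin gene MUC5AC (0.440), the lectin gene CLEC18A (0.433), LYPD8 (0.428) and the synaptic adhesion gene LRFN1 (0.420). Repeats within these genes, or other copies of them, were not examined either.

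The highest counts belonged to long genes with a mixture of strong and weak sites. PTPRN2, a receptor-type phosphatase of secretory vesicles (chr7:157539056-158587823), held 149 body summits in 87 intervals, the most of any gene. Only 12 of these had an enrichment of 5 or more and 59 were under 2, and the highest was 13.1 with 2900 fragments. DIP2C followed with 66, of which 9 reached 5, and GSE1 with 62, of which 20 did. TRIO (chr5:14143342-14510204), held 59 in 46 intervals, with 12 of 5 or more and the highest at 15.8 with 2614 fragments, 35.6 kb from the start. MAD1L1, of the spindle checkpoint, and DPP6, a potassium channel subunit, had 55 each, CAMTA1 and TBC1D22A 53 each, ADARB2 52 and CDH13, the T-cadherin gene, 51. CDH13 had the largest share of strong sites of the 10, with 23 of 5 or more and only 5 under 2.

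Several such genes had many body summits and no summit at either end. Leading them were GSE1 (62 body summits), DPP6 (55), ADARB2 (52), PDE4D (49) and RBFOX3 (48). PDE4D, a cyclic AMP phosphodiesterase gene of 1553 kb, had strong sites along its whole length: 29 of its 49 reached 5, and the highest were 18.8 at 326 kb and 18.7 at 1328 kb from the start. RBFOX3, a neuronal splicing factor gene, had a median of 1.98 and only 3 of 5 or more. At the other extreme, the longest genes with 0 body summits were DCC, the netrin receptor gene (1196 kb), EPHA6 (947 kb), NELL1 (906 kb), GRM7 (880 kb) and KHDRBS2 (744 kb). Of these 5, GRM7, a glutamate receptor gene, had an end summit, at an enrichment of 2.25.

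**Figure D4:**
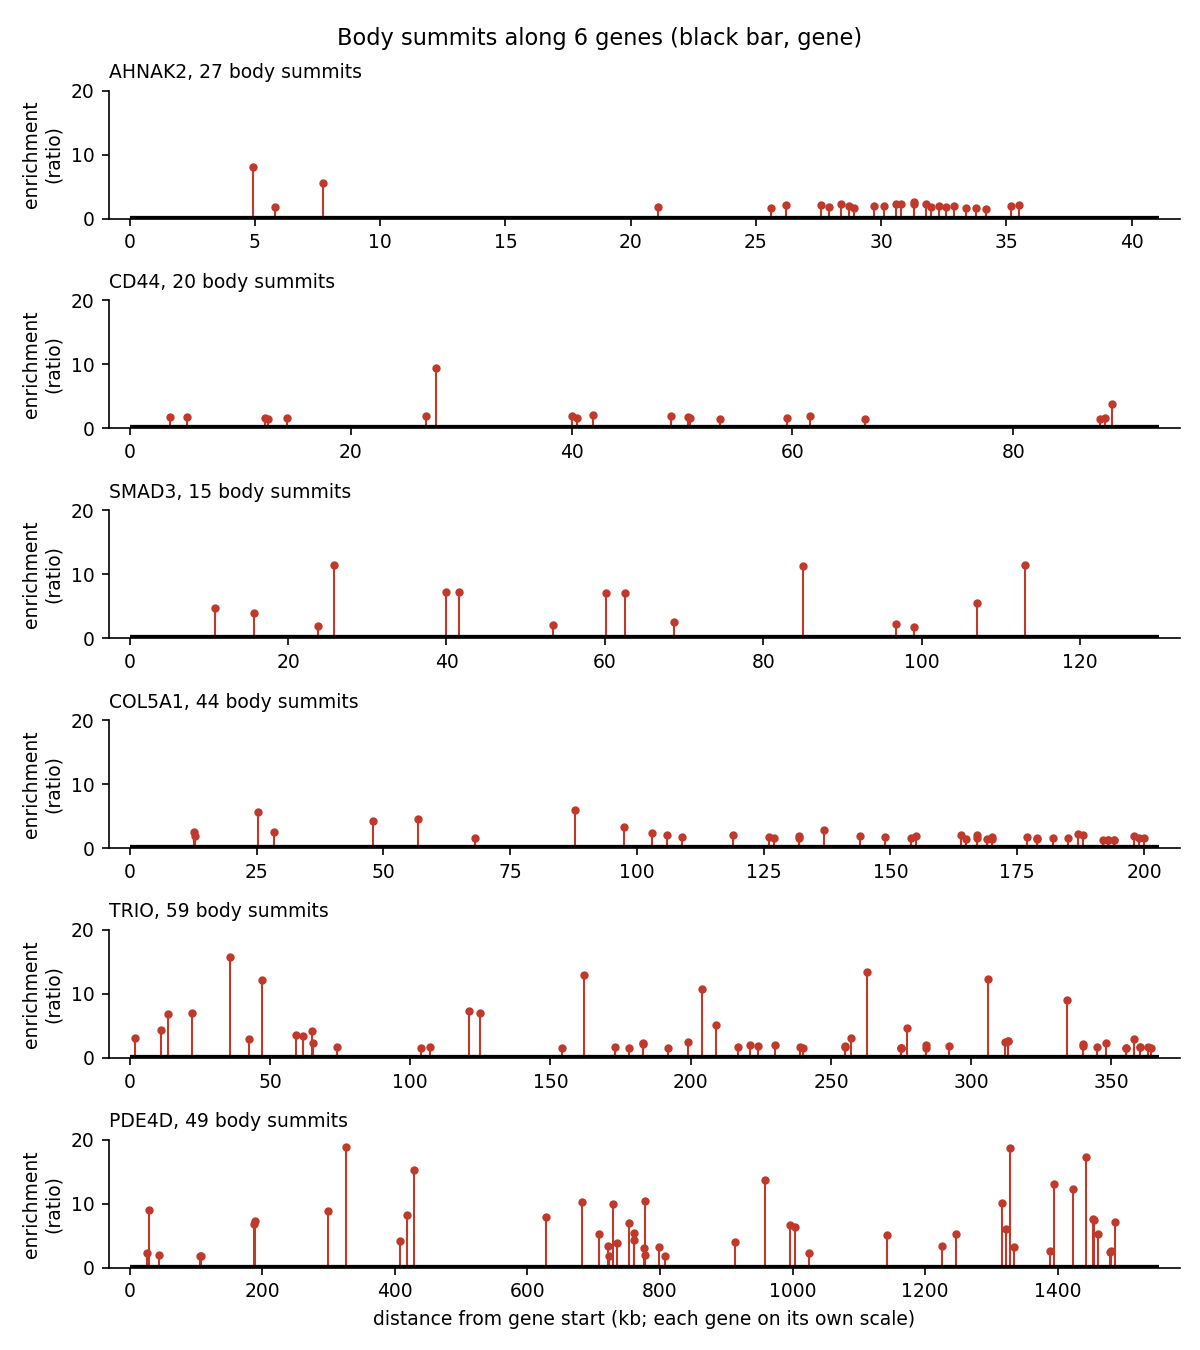
Body summits along AHNAK2, CD44, SMAD3, COL5A1, TRIO and PDE4D, with the distance from the gene start in kb (each gene on its own scale) and the enrichment as the height of each line. AHNAK2 has 23 of its 27 summits in 2 intervals between 25.6 and 35.5 kb, at low enrichment. SMAD3 and PDE4D have separate sites of high enrichment along the gene, and CD44 and COL5A1 have many summits of low enrichment. Median pileups of these 4 genes are 213, 135, 101 and 134 fragments, over median backgrounds of 60.3, 20.3, 55.9 and 65.6.

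Gene lists for processes of migration were then set beside all 13798 genes. They were composed with earlier results of these data known, so their counts are descriptions and not independent support. Among 25 focal adhesion and actin crosslinking genes, all 25 held a body summit against 69.3% of all genes, the median density was 0.0671 per kb against 0.0281, and 22 lay above the median of all genes of their own length range. These genes are long, with a median of 157 kb, and of all genes of 100 to 300 kb 92.3% held a body summit. TNS2, a tensin gene, had the highest density (0.230), from 4 summits of at most 1.79. ACTN4, which encodes the actin crosslinker alpha-actinin 4, had 16 (0.191 per kb), of which 6 reached 5 and the highest were 9.60 and 9.42. MYH9, the nonmuscle myosin heavy chain gene, had 20 (0.187), the highest at 11.0 with 760 fragments, 13.1 kb from the start. VCL (vinculin) had 13 and ACTN1 11, with highest values of 9.38 and 15.4. The adaptor genes BCAR1 and BCAR3 had 7 and 34, with highest enrichments of 13.5 (4016 fragments) and 14.8. Fewest per kb were in DIAPH3, a formin gene of 498 kb with 1 body summit.

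Integrins and other matrix receptors had a median density of 0.0632, with body summits in 23 of 25 genes and 19 above the median of their length range. Their median length was 81.7 kb, and of all genes of 30 to 100 kb 73.4% held a body summit. CD44, the hyaluronan receptor gene, had 20 summits (0.215 per kb) of which 19 lay between 1.50 and 3.76, and a single strong site of 9.38 with 1170 fragments, 27.7 kb from the start. ITGA3, an integrin subunit for laminin, had 6 (0.175), the highest at 8.65 with 1908 fragments. ITGB4, the beta subunit of hemidesmosomes, had 5 (0.138), none above 4.33. ITGA5, the fibronectin receptor subunit, had 3 with the highest at 15.6 (2740 fragments). Of the collagen-binding subunits, ITGA2 had 9 with the highest at 16.1, ITGA11 had 11 (12.2), ITGA1 4 (9.41) and ITGA10 1 (3.49). ITGB1, their shared beta subunit, had 2, neither above 5.75. The collagen receptor kinase gene DDR2 had 9 with the highest at 12.3, and DDR1 1 at 3.42. DDR1 lies in the MHC region of chromosome 6, of which the reference also has alternate copies. How reads that match several copies were placed is not given in the sources used here, so its value is uncertain. ITGA4 and SDC2, a syndecan gene of 118 kb, had 0, though each had an end summit (10.5 and 15.9).

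Extracellular matrix genes and their processing enzymes had a median density of 0.0564, with body summits in 25 of 26 genes and 21 above the median of their length range. Their median length was 103 kb, and of all genes of 100 to 300 kb 92.3% held a body summit. The densest genes of the list had sites of low enrichment over a raised background. Median pileups were 147 fragments in MMP14, 134 in COL5A1 and 193 in LOX, against 101 over all body summits. Median backgrounds were 79.5, 65.6 and 48.7 fragments, against 24.8 over all body summits. MMP14, the membrane-type metalloproteinase gene, had 3 summits in 1 interval, none above 2.08. COL5A1, a fibrillar collagen gene (chr9:134641803-134844843), had 44 in 203 kb (0.217 per kb), of which 30 were under 2 and 2 reached 5. LOX, which crosslinks collagen, had 2 at 3.85 and 3.96. Both also lay inside an overlapping coding gene and within 2500 bp of a gene end, and the density of LOX was 0 when either kind was left out. Stronger sites included those of several long genes: ADAM12 had 21 with the highest at 17.9 and no end summit, LTBP1 18 with the highest at 19.2, COL4A2 19 with 13.5, and FBN2 4 with 16.8. The shorter gelatinase gene MMP2 (27.9 kb) had 1 at 13.0. The type I collagen genes COL1A1 and COL1A2 had 1 each, at 9.95 and 3.75, and COL3A1 had 0, with no end summit in any of the 3.

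Mechanoresponsive and TGF-beta pathway regulators had the highest list median, 0.0699 per kb, with body summits in 25 of 26 genes, 21 of them above the median of their length range. Their median length was 106 kb, and of all genes of 100 to 300 kb 92.3% held a body summit. These regulators also had the largest share of strong summits of the 8 lists, 48.8% of 205 at 5 or more, against 37.4% over all genes of at least 10000 bp. That share was 45.3% for integrins and matrix receptors. In the contrast lists below it was 44.4% for blood, muscle and liver genes and 43.4% for large neuronal genes. Over all genes it was 27.6% at 10 to 30 kb, 39.8% at 100 to 300 kb and 43.7% at 300 to 1000 kb. Counting such summits alone, 22 of the 26 genes lay above the median of their length range, against 39.2% of all genes, 19 of 25 adhesion genes and 19 of 25 integrins and matrix receptors. SMAD3, the TGF-beta signal transducer (chr15:67065602-67195169), had 15 summits, each alone in its interval. Of these 8 reached 5, among them 11.5 at 25.8 kb, 11.3 at 85.0 kb and 11.4 at 113 kb from the start, with 705, 1070 and 785 fragments. RUNX1 had 27, the highest at 9.20. TEAD1, a DNA-binding partner of YAP, had 18 (13.5), WWTR1 17 (11.0) and YAP1 9 (13.3). TEAD3 had the highest density of the list (0.213) from 5 summits of at most 3.56. The receptor genes TGFBR2 and TGFBR3 had 10 and 13, and SKI, a repressor of SMAD signalling, 10. SKIL, a paralogue of SKI, had 0 and an end summit of 11.6.

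Receptor tyrosine kinase genes varied widely, from 0.221 per kb in EPHA2 to 0 in EPHA7, FGFR2 and FGFR3. The list had body summits in 21 of 24 genes, a median of 0.0457 and 16 genes above the median of their length range. Its median gene length was 141 kb, and of all genes of 100 to 300 kb 92.3% held a body summit. The pooled density of the list was lower than that of all genes, 0.0293 against 0.0335 per kb. EPHA2, an ephrin receptor gene, had 7 in 3 intervals, the highest at 7.09 with 833 fragments. ERBB2 had 4 (0.0986 per kb), the highest at 6.10. EGFR, the epidermal growth factor receptor gene, had 17 with the highest at 16.0 (1542 fragments), MET 6 (16.8), IGF1R 20 (14.9) and AXL 4, of which 1 had 2643 fragments at 9.52. ALK, of 729 kb, had 25, and ERBB4, of 1163 kb, had 1.

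Among heterochromatin enzymes and readers, the genes nearest to the title of the series, some were dense and 8 had none. A body summit was present in 18 of 26 (69.2%, against 69.3% of all genes), the median density was 0.0384 and 16 lay above the median of their length range. The median length of the list was 53.0 kb, and 73.4% of all genes of 30 to 100 kb held a body summit. Pooled density was 0.0536 per kb against 0.0335 over all genes, but 0.0135 against 0.0125 for summits with an enrichment of 5 or more. High densities were found in DNMT1, the maintenance DNA methyltransferase gene (14 summits, 0.227 per kb, 1 of them above 5, at 9.68), in the demethylase genes KDM6B (0.194) and KDM4B (0.119), in the class IIa deacetylase genes HDAC5 (0.128) and HDAC4 (38 summits, 0.108), and in EHMT1 (27 summits, 0.124). All 4 summits of KDM6B also lay inside an overlapping coding gene, and its density was 0.0972 at 2500 bp from gene ends. No body summit was found in SETDB1, SETDB2, SUV39H2 and EHMT2, which encode H3K9 methyltransferases or their relatives, in the Polycomb genes EZH1, EED and SUZ12, or in CBX3, which encodes a heterochromatin protein. Of these 8 genes, 7 had an end summit, at enrichments of 10.4 (CBX3) to 18.1 (SETDB2), and EHMT2 had none. Like DDR1, EHMT2 lies in the MHC region of chromosome 6, so its lack of summits is uncertain for the same reason. Lengths of the 8 ran from 12.2 to 64.0 kb.

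**Figure D5:**
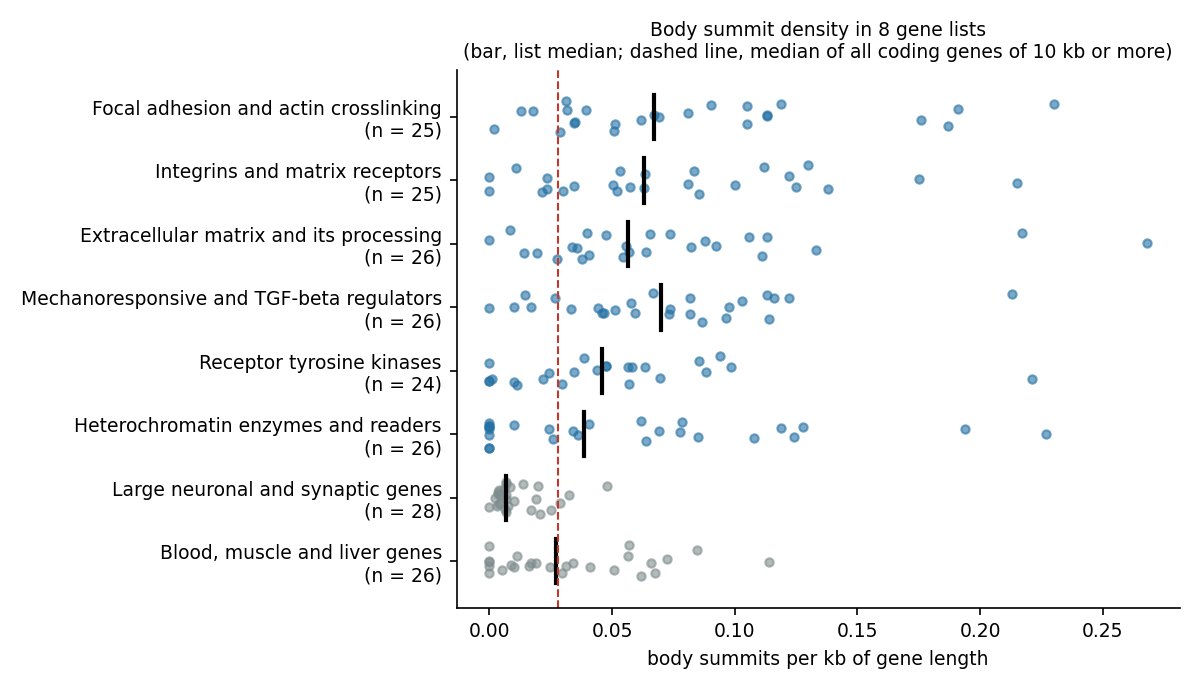
Body summits per kb of gene length for each gene of 8 lists (points), with the list median (bar) and the median of all coding genes of at least 10 kb (dashed line, 0.0281). Medians of the adhesion, integrin, matrix and mechanoresponsive lists lie between 0.0564 and 0.0699, and that of the large neuronal genes at 0.00669.

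A pair of contrast lists held genes known from tissues other than connective tissue. Large neuronal and synaptic genes had a body summit in 27 of 28 cases, but at a median density of 0.00669 over a median length of 1116 kb, and 9 lay above the median of their own length range. Of all genes over 1000 kb, 98.5% held a body summit. Only 10 of the 28 neuronal genes had an end summit. DPP6 led with 0.0480 per kb, followed by ASTN2 with 32 summits (0.0323), of which 17 reached 5, and the glutamate receptor gene GRID1 with 22 (0.0287). Of the 364 summits of the neuronal list 43.4% reached 5, including 19.5 in NRXN3, 17.6 in LSAMP and 16.4 in OPCML. This is near the share over all genes of such length, 43.7% at 300 to 1000 kb and 42.7% over 1000 kb. Blood, muscle and liver genes had a body summit in 21 of 26, a median density of 0.0272, and 13 above the median of their length range. Their median length was 101 kb, and of all genes of 100 to 300 kb 92.3% held a body summit. ITGA2B, a platelet integrin gene, had 2 of at most 1.78, while RYR1, the calcium release channel gene of muscle, had 13 with the highest at 11.1. LDB3, a gene of the muscle Z-disc, had 5 with the highest at 12.2. CPS1, a urea cycle enzyme gene, had 0 but an end summit of 12.6, and MYBPC1 had neither.

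Where a gene had both, its strongest body summit was higher than its strongest end summit in 2293 of 6757 cases (33.9%). This share was 24.7% at 10 to 30 kb, 30.6% at 30 to 100 kb, 43.1% at 100 to 300 kb, 61.0% at 300 to 1000 kb and 55.2% (16 of 29) over 1000 kb. Longer genes also had more body summits from which the strongest was taken. It was 12 of 20 for integrins and matrix receptors, 13 of 16 for receptor tyrosine kinases, 11 of 21 for adhesion genes, 9 of 20 for matrix genes, 9 of 18 for mechanoresponsive genes and 8 of 16 for heterochromatin genes. In the contrast lists it was 7 of 9 for the large neuronal genes and 4 of 4 for the blood, muscle and liver genes. ALK and CALD1 are examples, with 17.4 inside against 4.98 at an end and 16.6 against 4.10.

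Markers of cell kind were read at gene ends and bodies. Over all 19126 coding genes of any length, 66.3% had an end summit and 53.5% a body summit. Of 12 mesenchymal markers, 8 had an end summit, a share like that of all genes, and 10 a body summit. Both were found at CDH2, COL5A1, COL6A3, FN1, LOX and PDGFRB, and an end summit alone at S100A4 and VIM. An end summit was found at 2 of 10 epithelial, 3 of 7 haematopoietic, 2 of 5 endothelial, 0 of 5 neural, 0 of 5 skeletal muscle and 1 of 5 hepatocyte markers. Body summits were present in 4 of 10 epithelial, 4 of 7 haematopoietic, 4 of 5 endothelial, 3 of 5 neural, 2 of 5 muscle and 1 of 5 hepatocyte markers. The mesenchymal genes COL1A1, COL1A2, THY1 and TGFBI had no end summit.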

How the data were processed

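ATAC-seq libraries of HT1080 cells in 3 collagen concentrations (4 each) were represented by 1 deposited peak list. Per the submitters' processing notes, fastp 0.20.0, Bowtie2 2.4.3, SAMtools, deepTools 3.5.0, MACS2 2.2.7.1 and the hg38 build were used; their roles, parameters, duplicate handling and read placement are not given in the sources used here. The list holds no column per library, so libraries are pooled, depth per library is unknown and no test between concentrations was possible. In the deposited list each line gives an enrichment (a ratio over local background), a score, and a p-value and q-value on the −log10 scale, all the authors'. The deposited score equalled 10 times the −log10 q, truncated, in 99.8% of lines, and the lowest −log10 q was 1.30.

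From the enrichment and the p-value, fragment pileup and background were solved under a Poisson model with enrichment as (pileup + 1)/(background + 1). The pileup was whole within 0.05 in 99.98% of 178806 lines, and the method was tested on simulated data. Body summits, gene ends, density per kb and list counts were computed with Python 3.11.15, pandas 2.3.3, NumPy 2.4.6 and SciPy 1.17.1, using the RefSeq gene table and listed transcript starts of GRCh38.p14. Genes under 10000 bp were left out of densities. Confidence intervals of medians are from order statistics.

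Named genes were the 10 of highest density with at least 5 body summits, the 10 of highest count, the 5 longest with 0, the genes of the 10 summits of highest enrichment, the 3 densest and the long empty genes of each list, and 5 with many body summits and no end summit. Any other gene was chosen after its values were seen. A list and a gene that these rules give are not reported here. The members, lists and rules were chosen with earlier results of these data known. Alternatives changed the interval limit, the distance from gene ends, the minimum gene length, the length used, the −log10 q minimum, the handling of overlapping genes and of several summits per interval. A minimum enrichment of 5 and leaving out summits near listed starts were added after seeing the data.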

Additional observations from a re-analysis of the deposited data

How the results depend on the processing

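No paired analysis was possible because the pooled list carries no replicate, and for the same reason no replicate could be left out. The 40536 body summits became 26541 at a −log10 q of at least 10 and 15149 at an enrichment of at least 5, and stayed within 1.5 times of the reported number under the other 6 alternatives. Under these same settings (first the −log10 q minimum, then the enrichment minimum) the share of eligible summits was 37.9% and 35.6%, the share of genes with a body summit 59.8% and 46.7%, the median density 0.0145 and 0 per kb, the median enrichment 5.58 and 8.11, the median pileup 164 and 256, the neighbour distance 13426 and 21410 bp, the last segment's part 53.1% and 52.5%, and the share of internal starts with a body summit 23.6% and 18.6%. With a distance of 2500 bp from gene ends these were 33.8%, 64.1%, 0.0209, 3.83 for enrichment, 9168 bp and 59.3% for the last segment. Counting distance from coding gene ends only gave 40.5%, 70.7%, 0.0305, 8437 bp and 29.2% of internal starts. The strongest summit of each interval alone gave a share of 40.0%, a density of 0.0251, an enrichment of 4.27, a pileup of 113, a distance of 12028 bp and 24.3% of internal starts. Summits inside 1 coding gene only gave 37.5%, 66.2% and 0.0245. An interval limit of 5000 bp gave a share of 39.7%, and no limit gave 23.3%, an enrichment of 3.79 and a distance of 8424 bp. A minimum gene length of 20000 bp gave 76.4% of genes and a density of 0.0294, no minimum gave 53.5% and 0.0115, and counting only length over 1000 bp from gene ends gave 0.0301. Without summits near listed starts the median enrichment was 3.67. Whether a list's pooled density lay above or below that of all genes was the same in 88 of 88 pairs of a reported list and a setting. Of 513 density values of named genes, 112 moved by over 1.5 times: 46 at the enrichment minimum, 31 at the −log10 q minimum, 21 with the strongest summit of each interval, 7 at 2500 bp and the others under the remaining settings. LOX and KDM6B came to 0 with summits inside 1 coding gene only. What moves these values beyond the settings themselves was not tested, and depth per library, which sets the weakest summit that can be called, is unknown.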

Other observations

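With body summits of an enrichment of at least 5 only, a ranking made after the values were seen, other genes led. Among genes with at least 5 such summits, the densest were SPDYE3 (6 such summits, 0.414 per kb), EPPK1, the epiplakin gene (8, 0.366), TMEM242 (6, 0.174), the mucin gene MUC5B (6, 0.153) and GJC1, a connexin gene (5, 0.134). DUX4, with 3 such summits (0.247 per kb), fell under that number. TMEM242 had a median pileup of 4936 fragments over its 6 summits. SPDYE3 belongs to a family of near-identical copies and EPPK1 holds internal repeats, so both values are uncertain. Repeats in the other genes of this ranking, MUC5B among them, were not examined. By count the leaders were PDE4D (29 of 49 body summits), KCNMA1, a potassium channel gene (26 of 48), CAST, which encodes calpastatin (24 of 36), CDH13 (23 of 51) and PARD3, a cell polarity gene (22 of 39). MACROD2 had 21 of its 29 at 5 or more.

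Chromosome X was outside the rule. Counted in the same way it held 568 body summits among 1940 eligible ones (29.3%), and 241 of its 518 coding genes of at least 10000 bp held at least 1 (46.5%). The pooled density was 0.0112 per kb, against 0.0335 on the autosomes. Its body summits had medians of 5.44 for enrichment and 126 for pileup. The share of X chromosome copies in these cells was not analysed here.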
